A study of Mus musculus with 4 samples.

Results

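Semaphorins, plexins and neuropilins were followed in the midbrain of *Lmx1a-dr/dr* embryos at E12.5. The set holds 20 semaphorin genes, 9 plexin genes and both neuropilin genes. These 31 genes were chosen as families by their symbol in the array annotation, and all 31 were found, with 61 of the 41174 probes tested (18322 named genes in all). The mutant mice are homozygous for the dr-J allele of dreher (strain B6C3Fe a/a-Lmx1a dr-J, kept on C57Bl/6J), a point mutation in the LIM homeodomain gene *Lmx1a*, and the controls are *Lmx1a-+/+* littermates. RNA from 5 dissected *Lmx1a-dr/dr* midbrains made up each of replicates a to d, and each was hybridized on 1 dual-colour array against the same pool of RNA from 20 wild-type midbrains. The paper's methods call the tissue midbrain, while its results describe it as mesodiencephalic with the retromammillary tegmentum. *Lmx1a-dr/dr* RNA was labeled with Cy3 in replicates a and c and with Cy5 in replicates b and d. Every value is a log2 ratio of *Lmx1a-dr/dr* over wild-type, so that 0 is the level of the pool. The *Lmx1a* probe, which is above background in both genotypes, was at -0.46, -0.75, -0.39 and -0.84 in replicates a to d (mean -0.61). *Lmx1a* was thus lower on all arrays, with the lower values in Cy5. The position of its probe against the mutated base was not analysed here. The variation between wild-type litters is not measured, and fewer cells of a type cannot be told apart from less RNA per cell.

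Semaphorins are secreted or membrane-bound guidance cues that steer growing axons and migrating neurons. Plexins are their main receptors, and act on the cytoskeleton through small GTPases. Class 3 semaphorins are secreted and mostly need a neuropilin as the binding partner of an A-type plexin. Classes 4 to 7 are membrane-bound and mostly bind plexins directly. In the midbrain, these cues and receptors take part in guiding dopaminergic axons and in positioning neurons.

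4 promoters are shown. *Sema4g*, *Plxna3* and *Nrp2* had the lowest probe means among the members, and *Plxnb2* was lower on all arrays by each of its probes. The sequences come from RefSeq (GRCm38.p6) and run from 250 bases before to 50 bases after the annotated start of transcription, and for *Plxnb2* the more upstream of 2 windows is given. Capitals mark GGGCGG or its reverse complement CCGCCC, the core of the GC box bound by Sp family factors.
Sema4g, chr19:44989094-44989393, + strand: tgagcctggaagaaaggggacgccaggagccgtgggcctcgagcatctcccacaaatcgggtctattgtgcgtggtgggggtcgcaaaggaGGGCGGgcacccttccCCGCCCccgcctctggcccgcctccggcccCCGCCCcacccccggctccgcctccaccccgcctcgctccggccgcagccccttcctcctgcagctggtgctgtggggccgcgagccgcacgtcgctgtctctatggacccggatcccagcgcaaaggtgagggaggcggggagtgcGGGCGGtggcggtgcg
Nrp2, chr1:62703067-62703366, + strand: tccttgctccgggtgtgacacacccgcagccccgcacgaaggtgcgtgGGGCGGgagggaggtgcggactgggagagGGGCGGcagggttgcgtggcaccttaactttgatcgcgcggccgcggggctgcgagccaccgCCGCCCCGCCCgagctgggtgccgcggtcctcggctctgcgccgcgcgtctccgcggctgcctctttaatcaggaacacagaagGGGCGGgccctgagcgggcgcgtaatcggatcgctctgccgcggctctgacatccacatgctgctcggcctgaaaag
Plxnb2, chr15:89180739-89181038, - strand: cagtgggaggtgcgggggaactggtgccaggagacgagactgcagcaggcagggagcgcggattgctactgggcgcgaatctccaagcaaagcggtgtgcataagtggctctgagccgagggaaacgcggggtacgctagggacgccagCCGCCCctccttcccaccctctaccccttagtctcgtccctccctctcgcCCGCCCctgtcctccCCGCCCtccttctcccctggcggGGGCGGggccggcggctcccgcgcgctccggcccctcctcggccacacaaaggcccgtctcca
Plxna3, chrX:74328816-74329115, + strand: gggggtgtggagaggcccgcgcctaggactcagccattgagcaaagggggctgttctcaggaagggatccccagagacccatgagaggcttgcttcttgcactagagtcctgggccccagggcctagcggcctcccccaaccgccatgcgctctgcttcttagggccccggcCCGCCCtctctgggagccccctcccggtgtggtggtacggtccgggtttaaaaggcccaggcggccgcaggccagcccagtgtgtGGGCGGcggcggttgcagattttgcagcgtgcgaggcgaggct
The *Nrp2* window holds 5 GC boxes, the *Sema4g* and *Plxnb2* windows 4 each and the *Plxna3* window 2, counted on both strands with overlaps. The windows are 73.3% G and C for *Sema4g*, 70.7% for *Nrp2*, 70.3% for *Plxnb2* and 67.7% for *Plxna3*. The table holds 37 windows for 26 of the 31 members. Of these, 27 (73.0%) hold a GC box, against 35.7% of all 32851 windows. The members' windows are also richer in G and C, with a median of 63.7%, against 52.7% of all windows. The homeodomain core TAATTA, searched on both strands, was in 0 of the 37 windows and in 5.29% of all windows. These counts describe the letters only.

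*Sema4g*, a class 4 transmembrane semaphorin, was the 1 member that fell in *Lmx1a-dr/dr* midbrains. Its single probe had ratios of -0.38, -0.53, -0.45 and -0.35 in replicates a to d. All 4 arrays were below 0, and the arrays with *Lmx1a-dr/dr* in Cy3 (mean -0.42) and in Cy5 (mean -0.44) did not separate. The mean of -0.43 had a standard error of 0.043 over 4 arrays, equals 74.3% of the wild-type level and passed the test at a permutation p of 0.028 (family-wise). *Sema4g* was already known as a regulated gene from these same arrays, so its call is not independent evidence. By the permutation F2 test of the study's methods (a family-wise p under 0.05 counts as a call), 1 of 61 member probes was called (1.64%), against 0.277% of the 41174 probes (0.189% lower and 0.0874% higher). By the brightest probe it was 1 of 31 genes (3.23%), against 0.322% of all named genes. Limma with a dye term called 0 members and 0 probes in all (*Sema4g* adjusted p = 0.0967). At an unadjusted p under 0.05, limma gave 20 of 61 member probes (32.8%), against 17.1% of all probes. Of these, 17 were lower (27.9%, against 8.24%) and 3 were higher (4.92%, against 8.85%). At an adjusted p under 0.10, limma gave *Sema4g* and *Nrp2*, 2 of 61 probes (3.28%), against 0.605% of all. With any 1 array left out *Sema4g* stayed between -0.47 and -0.38 but was no longer called, and 0 to 7 of all probes were. It also lost its call with normexp background correction (-0.39). With Benjamini-Hochberg adjustment of the permutation p in place of the family-wise p, 6 member probes were called (9.84%, against 5.4% of all probes, 2.77% lower and 2.63% higher), of *Sema4g*, *Nrp2*, *Plxna3*, *Plxnb2* and *Sema4d*, all lower, and of *Sema3e*, higher.

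The other class 4 genes lay closer to wild-type. *Sema4d*, which signals through plexin B1, was not called, and its probes differed. The dimmer *Sema4d* probe was at -0.32, -0.19, -0.22 and -0.23 in replicates a to d, below 0 on all arrays (mean -0.24, standard error 0.034, family-wise permutation p = 0.997), and it was called by limma with an intensity trend. The brighter *Sema4d* probe was at -0.10, 0.19, -0.32 and 0.21, so that its sign followed the dye and its mean was -0.0050. *Sema4f* was below 0 on all arrays at smaller size (-0.25 to -0.06, mean -0.14). *Sema4a* (-0.13), *Sema4b* (-0.08) and both *Sema4c* probes (-0.09 and -0.07) had negative means but were above 0 on at least 1 array. All 8 class 4 probes thus had a mean below 0, against 49.5% of all probes, although with median centring in place of loess, and without replicate c, 1 of the 6 genes was above 0 by its brightest probe.

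**Figure D1:**
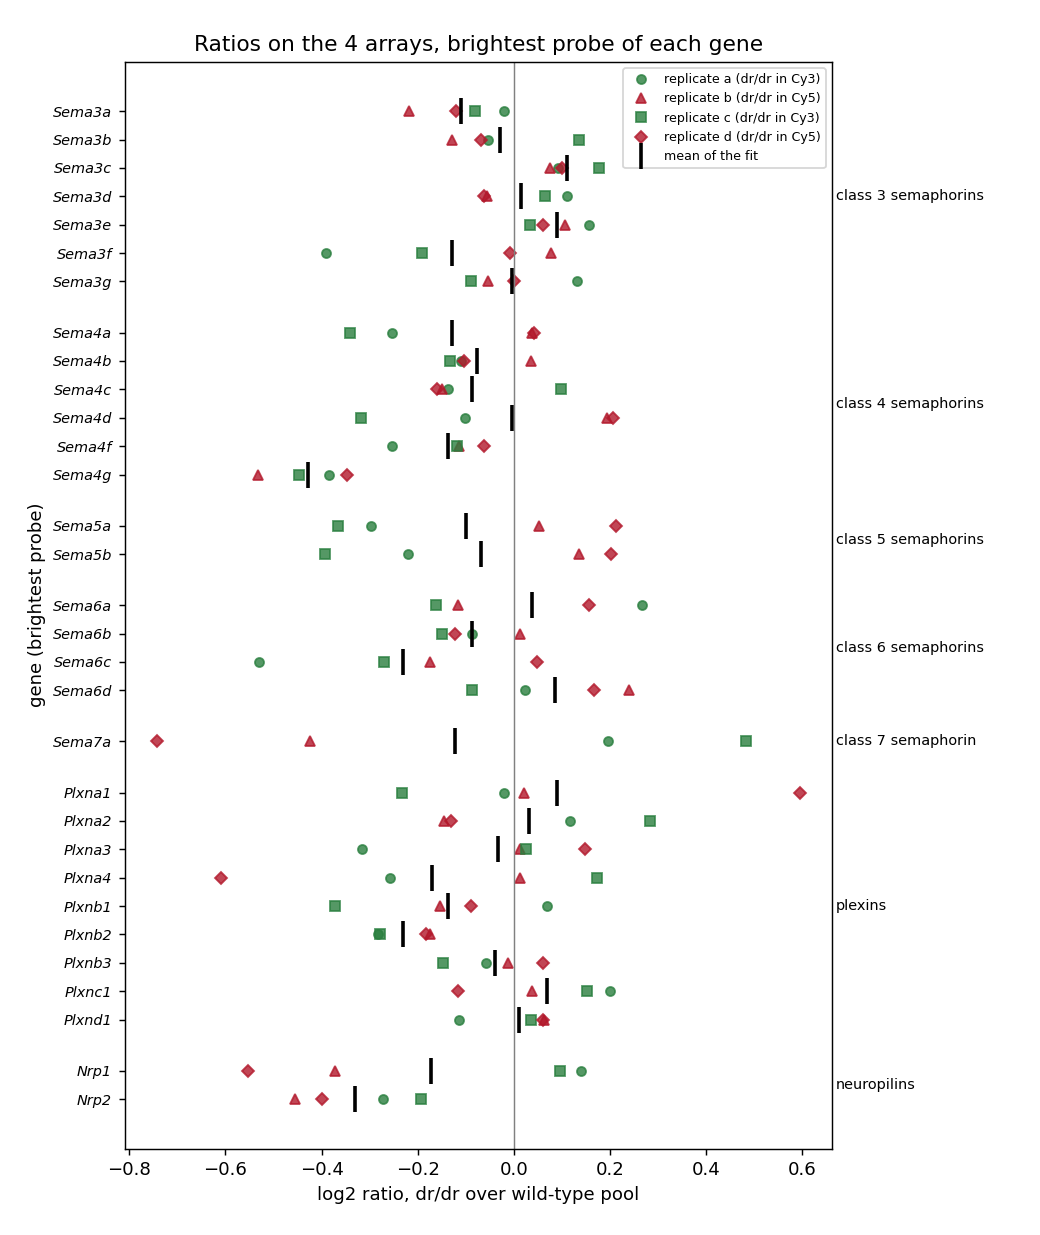
Log2 ratio of *Lmx1a-dr/dr* over the wild-type pool (x axis) for the brightest probe of each of the 31 genes (y axis), with 1 point per array, green for *Lmx1a-dr/dr* in Cy3 and red for Cy5, and a black bar at the mean. *Sema4g*, *Nrp2*, *Plxnb2*, *Sema4f* and *Sema3a* lie left of 0 on all arrays, while the *Sema7a* points are split by dye from -0.74 to 0.48.

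Among the receptors of class 4 semaphorins, *Plxnb2* was below wild-type on every array by all of its 3 probes. Plexin B2 binds several class 4 semaphorins, and in the mouse cerebellum it acts as a receptor for Sema4C and Sema4G. Its brightest probe was at -0.28, -0.18, -0.28 and -0.18 in replicates a to d, a narrow range with no overlap with 0. The mean of -0.23 had a standard error of 0.029, equals 85.3% of the wild-type level and did not pass the test (permutation p = 0.973, limma adjusted p = 0.102). Its second probe was at -0.40, -0.31, -0.05 and -0.14 (mean -0.22), and its dimmest at -0.12, -0.24, -0.06 and -0.06 (mean -0.12). *Plxnb1* had means of -0.14 and -0.12 by 2 probes that crossed 0, with the lowest values in replicate c (-0.37 and -0.35). *Plxnb3* was at -0.04.

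*Nrp2*, the neuropilin that binds Sema3F most strongly, was below wild-type on all arrays. Its single probe had ratios of -0.27, -0.46, -0.19 and -0.40 in replicates a to d. The values with *Lmx1a-dr/dr* in Cy5 were both lower than those with Cy3, and the groups of dyes did not overlap. Their mean of -0.33 had a standard error of 0.033, equals 79.5% of the wild-type level and did not pass the test (permutation p = 0.107, limma adjusted p = 0.0967). *Nrp2* was called when the median spot signal was used (-0.36). *Nrp1*, the receptor for Sema3A, gave no single direction over its 5 probes. Its brightest probe was at 0.14, -0.37, 0.10 and -0.55 in replicates a to d, with a dye effect of -0.29 that exceeded the genotype mean of -0.17. The next *Nrp1* probe had a mean of 0.04, and the third was below 0 on all arrays (-0.21 to -0.06, mean -0.13). The 2 dimmest *Nrp1* probes had means of -0.03 and 0.01, and the last of them was above background on 0 arrays in *Lmx1a-dr/dr* and 1 in wild-type.

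*Plxna3*, which with Nrp2 forms a receptor for Sema3F, had 1 of 2 probes below wild-type on all arrays. That probe, the dimmer one, was at -0.31, -0.30, -0.52 and -0.40 in replicates a to d. Its mean of -0.39 had a standard error of 0.048, equals 76.5% of the wild-type level and did not pass the test (permutation p = 0.25, limma adjusted p = 0.102). It was called with the median spot signal (-0.38) and by limma with an intensity trend (-0.39). The brighter *Plxna3* probe was at -0.32, 0.01, 0.02 and 0.15, so that only replicate a was below 0 (mean -0.03). Which transcripts of *Plxna3* these probes read was not analysed here. The other A-type plexins, co-receptors of class 3 and receptors of class 6 semaphorins, had no probe of the same sign on all arrays. The brightest probe of *Plxna1* was at 0.09, that of *Plxna2* at 0.03 and that of *Plxna4* at -0.17, with *Plxna1* reaching 0.59 and *Plxna4* -0.61 in replicate d. *Plxnc1*, the receptor for Sema7A, was at 0.07 and *Plxnd1*, the receptor for Sema3E in vessels, at 0.01.

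The probe means of the class 3 ligands lay between -0.13 and 0.18, and 0 of their 13 probes were called. *Sema3e* was the member gene with the highest probe mean. Its second brightest probe was at 0.27, 0.02, 0.29 and 0.15 in replicates a to d, above 0 on all arrays (mean 0.18, standard error 0.035, limma adjusted p = 0.129), and was not called. The brightest *Sema3e* probe was also above 0 on all arrays, at 0.16, 0.11, 0.03 and 0.06 (mean 0.09), while its dim probes, above background on only 1 or 2 arrays in each genotype, were at -0.01 and -0.03. *Sema3c*, an attractant for some cortical axons, was at 0.11 by its brighter probe (0.08 to 0.18 over the arrays) and at 0.01 by the other. *Sema3a*, a repellent for many axons, was below 0 on all arrays by its brighter probe (-0.22 to -0.02, mean -0.11) and at 0.02 by its dimmer probe. *Sema3f*, the ligand of Nrp2, had means of -0.13 and -0.05, with its brightest probe at -0.39, 0.08, -0.19 and -0.01 in replicates a to d. *Sema3b* (-0.03), *Sema3g* (-0.0036) and *Sema3d* (0.01) lay near 0, and the *Sema3d* probe was above background on 1 of 4 arrays in either genotype.

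The dye effect was larger than the genotype effect for 3 of 5 probes of the transmembrane class 5 semaphorins and for the membrane-anchored *Sema7a*, and for 2 of 10 probes of class 6. The same held for 8 of 13 class 3, 9 of 18 plexin, 3 of 8 class 4 and 2 of 6 neuropilin probes. *Sema5b*, which limits neurite growth in the retina, had its brightest probe at -0.22, 0.14, -0.39 and 0.20 in replicates a to d. Its second probe ran the other way, at 0.40, -0.53, 0.29 and -0.91, with a dye effect of -0.53. Only the third *Sema5b* probe was below 0 on all arrays (-0.23, -0.01, -0.33 and -0.15, mean -0.18, standard error 0.040, limma adjusted p = 0.149). *Sema5a* was at -0.10 and -0.07, and its brighter probe followed the dye. *Sema7a*, which binds plexin C1 and integrins, was at 0.20, -0.42, 0.48 and -0.74, so that its mean of -0.12 is small beside a dye effect of -0.46. Arrays of opposite orientation held RNA of different mutant pools, so that dye and pool cannot be told apart in these values.

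*Sema6c* had the lowest mean of class 6. Its brighter probe was at -0.53, -0.18, -0.27 and 0.05 in replicates a to d (mean -0.23, standard error 0.064), with replicate d on the other side of 0. Its dimmer probe was below 0 on all arrays (-0.19, -0.11, -0.21 and -0.06, mean -0.14, standard error 0.030), and neither was called. *Sema6d*, a ligand of plexin A1, had means of 0.09 and 0.11 by 2 probes and -0.05 by the third. The 4 probes of *Sema6a*, a ligand of plexins A2 and A4, had means from -0.10 to 0.04, and *Sema6b* was at -0.09.

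**Figure D2:**
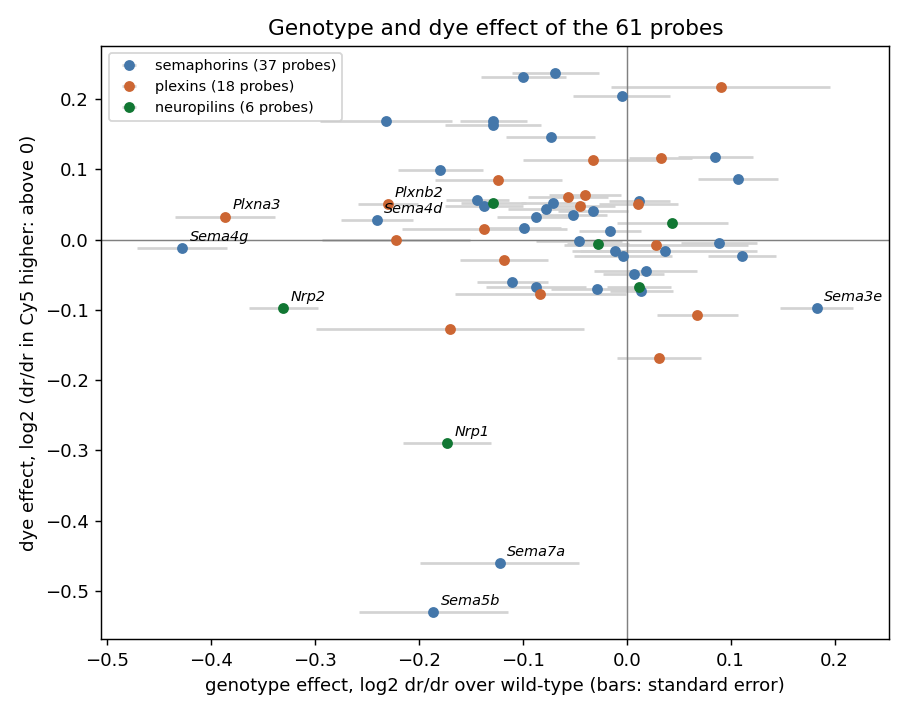
Genotype effect (x axis, log2, with its standard error) and dye effect (y axis, log2, above 0 where the ratio was higher with *Lmx1a-dr/dr* in Cy5) of the 61 probes, coloured by family. *Sema4g* and *Plxna3* lie far left near a dye effect of 0, while the labelled *Sema5b* and *Sema7a* probes have dye effects of -0.53 and -0.46.

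Over the 61 probes, the dye effect was larger than the genotype effect for 28 (45.9%), against 61.2% of all probes. The values of *Nrp1* and *Sema7a* were given for their dye effects, and those of *Sema3f* as the ligand of Nrp2, after they had been seen. The sign of the ratio followed the dye on all 4 arrays for 14 member probes (23.0%), against 33.6% of all probes. It was the same on all 4 arrays for 17 member probes (27.9%), against 16.1% of all probes, and of these 14 were lower (23.0%, against 8.02%) and 3 were higher (4.92%, against 8.06%). The 14 lower probes belong to 11 genes and the 3 higher ones to *Sema3c* and *Sema3e*. Of the 17 genes with more than 1 probe, 9 had all probe means below 0 and 7 had both signs, while *Sema3c* had both probes above 0. Probes of a gene share its RNA and are not replicates.

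By the brightest probe, 22 of the 31 genes (71.0%) had a mean below 0, against 52.8% of all named genes. The median of the 31 was -0.08, and that of all named genes was -0.0043. Over the alternative settings the share below 0 was 64.5% to 77.4%, against 51.6% to 57.1%. Between classes, the medians were -0.0036 for the 7 class 3 genes, -0.11 for the 6 class 4 genes and -0.03 for the 4 class 6 genes. The class 5 pair had a median of -0.08, and the plexins had -0.03 over 9 genes. The neuropilin median was -0.25, over *Nrp1* and *Nrp2* alone. It was -0.07, -0.41, -0.05 and -0.48 in replicates a to d, split by dye, and classes 4 and 5 were lower than the neuropilins on both arrays with *Lmx1a-dr/dr* in Cy3. With all probes pooled, the neuropilin median was -0.08 over 6 probes, the plexin median -0.05 over 18, the class 5 median -0.10 over 5 and the class 4 median -0.11 over 8. On the arrays, class 4 medians were -0.19, -0.04, -0.23 and -0.08 in replicates a to d, lower on both Cy3 arrays than on both Cy5 arrays. The class 5 medians were -0.26, 0.09, -0.38 and 0.21. The medians of class 3 (-0.02 to 0.03), class 6 (-0.09 to 0.04) and the plexins (-0.05 to 0.04) changed sign over the alternative settings, and that of class 4 ran from -0.13 to -0.09. Medians are given without a test, since the families were chosen with results of these arrays known.

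**Figure D3:**
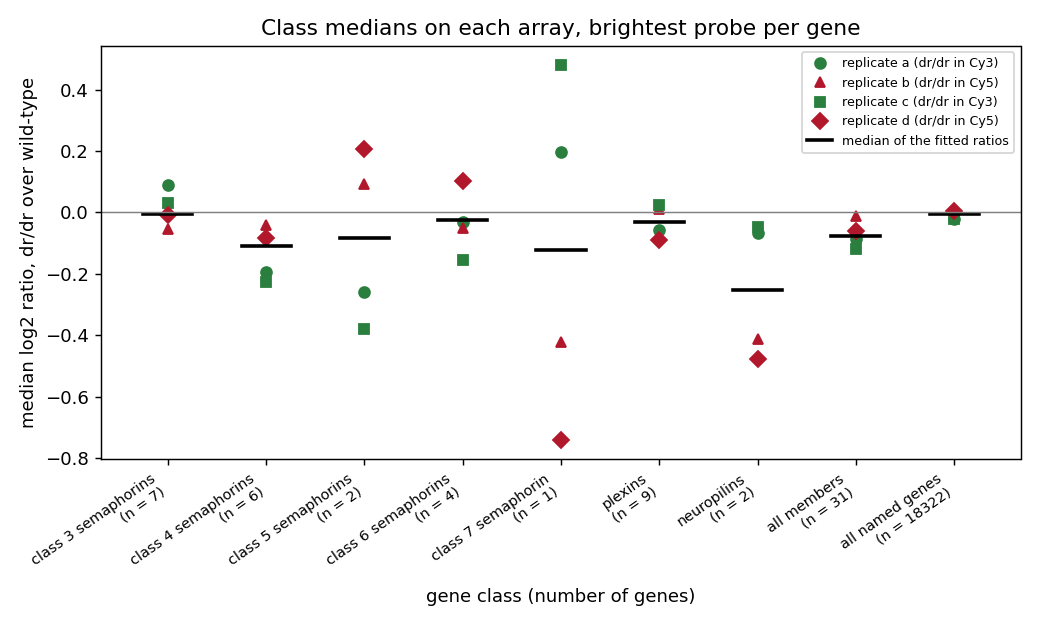
Median log2 ratio (y axis) of each class on each array (points, coloured by the dye of *Lmx1a-dr/dr*) and of the fitted means (black bars), by the brightest probe of each gene. The class 4 points are below 0 on all arrays, between -0.23 and -0.04, with both Cy3 points lower than both Cy5 points. Those of class 3, class 5, *Sema7a* and the neuropilins are also split by dye.

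Genes that act with these ligands and receptors were mostly not called. Of 44 measured partner genes, 1 fell, 0 rose and 43 were not called, which is 1 of 110 probes (0.909%), against 0.277% of all probes. By the brightest probe 0 were called, and 25 (56.8%) were below 0, against 52.8% of all named genes, with a median of -0.02. *Sdc3*, the heparan sulfate proteoglycan syndecan 3, was the gene that fell, by its dimmer probe at -0.23, -0.54, -0.15 and -0.58 in replicates a to d (mean -0.37, standard error 0.032, family-wise permutation p = 0.0186). All arrays were below 0, with the lower values in Cy5. Its brighter probe followed the dye and was at -0.14. Of 15 co-receptors and other receptors, 8 were below 0 by the brightest probe, over a range of -0.26 to 0.07 (median -0.04).

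Of 29 intracellular effectors, 0 were called and 17 were below 0 (median -0.01). By the brightest probe, limma gave 10 of them (34.5%) an unadjusted p under 0.05, against 18.3% of all named genes, and 0 an adjusted p under 0.05. *Dpysl5*, a CRMP family protein of growth cones, was lowest at -0.40 (-0.67 to -0.28 over the arrays). The dimmer *Dpysl5* probe was at -0.21, 0.0044, -0.40 and -0.02 in replicates a to d (mean -0.16). *Arhgef11*, a guanine nucleotide exchange factor that binds B-type plexins, was at -0.31 and below 0 on all arrays, and its 4 dimmer probes had means from -0.01 to 0.16. *Crmp1*, a mediator of the growth cone response to Sema3A, was at -0.30, with ratios of -1.16, 0.32, -0.91 and 0.55 in replicates a to d. The highest was *Gsk3b*, a kinase in Sema3A signalling, at 0.28 (0.08 to 0.49 over the arrays). Next were *Rnd3*, an atypical small GTPase, at 0.25 and *Rasa1*, a Ras GTPase activator, at 0.23, which both followed the dye. Dimmer probes had means of 0.08 to 0.29 for *Gsk3b*, 0.10 and 0.08 for *Rnd3* and 0.01 and 0.09 for *Rasa1*.

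The array-wide facts that bear on these values are few. Median intensities were 137.4 to 174.2 in Cy5 and 70.0 to 84.7 in Cy3. Ratios of arrays of the same dye orientation correlated over all probes with r of 0.639 and 0.579, and those of opposite orientation with r from -0.342 to -0.29. Of the member probes, 51 of 61 (83.6%) were above background on all arrays in both genotypes, against 75.9% of all probes. By the brightest probe this held for 30 genes, *Sema3d* being the exception. All 10 midbrain markers were above background on all arrays, with a list median of -0.06 by the brightest probe. Of these, 7 were below 0 and 3 above, and *Otx2* was highest at 0.20, above 0 on all arrays. *Th* and *Nr4a2* of the dopaminergic lineage fell (-0.55, and -0.75 by the brightest probe). *Pitx3* of the same lineage was at -0.08, followed the dye and was not called. *En1* was at -0.48 and below 0 on all arrays, and *Lmx1b* was at -0.03, and neither was called. The dimmer *Nr4a2* probes were at -0.09 and -0.06, followed the dye and were not called. Also above background were 4 of 4 forebrain and 4 of 6 hindbrain markers. The 8 endothelial markers, a cell type that also uses *Nrp1* and *Plxnd1*, were above background as well, with means from -0.19 to -0.01 (median -0.05, 0 called). Their summed intensity (log2) was 11.1 to 11.3 in wild-type and 11.0 in *Lmx1a-dr/dr* in Cy5, and 9.85 to 9.87 in wild-type and 9.92 to 9.96 in *Lmx1a-dr/dr* in Cy3. Their part in the values of *Nrp1* and *Plxnd1* was not tested. Of the other lists 0 genes were called, and medians are given with the range by the brightest probe. They were -0.01 over 5 pan-neuronal (-0.35 to 0.19) and 0.04 over 7 mesenchyme and meninges markers (-0.02 to 0.39). The 6 blood and microglia markers had 0.01 (-0.17 to 0.28), and 4 neural crest and sensory ganglion markers -0.01 (-0.20 to 0.01). The 4 forebrain markers had 0.02 (-0.11 to 0.09) and the 6 hindbrain markers -0.01 (-0.22 to 0.09).

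**Figure D4:**
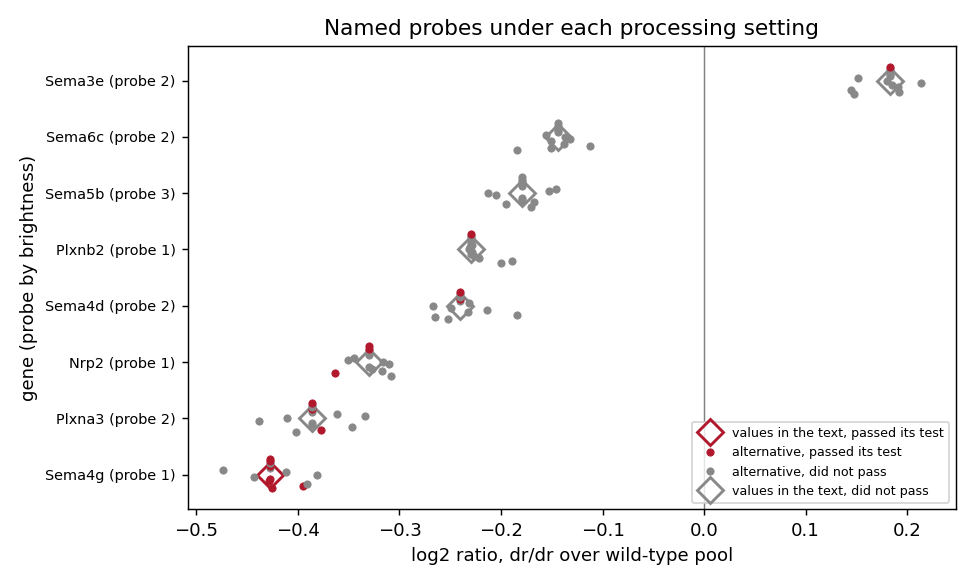
Log2 ratio (x axis) of the 8 probes named by the rule (y axis, with their rank by brightness) in the values of the text (open diamonds) and under each alternative setting (dots), red where the probe passed the test of that setting. *Sema4g* stays between -0.47 and -0.38, and every probe keeps its sign, which most of the settings could not have changed.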

How the data were processed

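Dual-colour Agilent 4x44K arrays were scanned, and the authors quantified the spots with ImaGene 8.0. The deposited files give raw intensities of spot and local background per channel. The authors also deposited log2 ratios after print-tip loess on mean intensities, which served as an alternative (their direction, dr/dr over wild-type, was found from the intensities).

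Log2 ratios were recomputed from mean intensities without background subtraction, with 1 loess curve per array (span 0.3, 4 iterations) over 41174 probes of 45220 spots, the 4046 control spots being left out. A spot was above background where its mean exceeded the background mean by 2 SD. The main test was that of the study's methods, a permutation F2 test with dye and genotype terms (5000 shuffles of residuals, 1000 for the alternatives, family-wise p under 0.05). Standard errors and adjusted p-values came from limma 3.58.1 in R 4.3.3 with a dye term, adjusted by Benjamini-Hochberg over all probes, and permutations ran in Python 3.11.15 with numpy 2.4.6. The scripts were checked on simulated data. The brightest probe stood for a gene. The alternatives were limma settings, other adjustment, background correction, median centring, a filter on dim probes, median spot signal, the deposited ratios and leaving out each array.

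The members, the partner and marker lists and the tests were chosen with earlier results of these data known. Arrays were given in full for members that were called, or whose probe had 1 sign on all arrays with a mean of at least 0.25, or an unadjusted limma p under 0.01, and for other probes of such genes (the dim *Sema3e* probes by their means), and of the partners called genes and the highest and lowest 3 were named. Of 45 partners listed, 44 were analysed. Replicates were separate pools of embryos, and the number of arrays (4) limits the precision. With the dye term, standard errors and p-values rest on the spread between pools of the same dye orientation. The difference between orientations, where dye and pool cannot be told apart, is left out of them. Limma also draws each probe's variance towards a value estimated over all probes, so its standard errors are not the spread of 1 probe alone. The brightest *Plxnb2* probe had a standard error of 0.029, with ratios of -0.283 and -0.279 in replicates a and c and -0.175 and -0.183 in b and d. For *Nrp2* the standard error was 0.033, while the SD over the arrays was 0.12. The permutation test also averages each probe's variance with that of all probes and shuffles residuals over all probes.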

Additional observations from a re-analysis of the deposited data

Results flagged for a closer look

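In 2 of 62 probes tested, 1 array stood apart from the other 3 by most of the range. Chance gives this in about 1 in 20 groups of like samples, so 2 is no more than that rate gives. The arrays here differ by dye orientation, so the rate is only a guide. The brighter *Sema4c* probe was at 0.10 in replicate c, while the other arrays lay between -0.16 and -0.14. The *Plxnd1* probe was at -0.11 in replicate a, while the other arrays lay between 0.04 and 0.06.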

How the results depend on the processing

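All 8 named probes kept their direction under every alternative run, *Sema4g* between -0.47 and -0.38. For most settings this was fixed in advance. The probes had 1 sign on all arrays, so leaving an array out could not turn it. The limma, Benjamini-Hochberg and dim-probe settings leave the ratio as it was. Only median centring, the median spot signal, normexp and the deposited ratios could have turned a sign. The call of 1 member probe and 1 member gene became 3 with the median spot signal (*Sema4g*, *Nrp2*, *Plxna3*), 3 by limma with an intensity trend (*Sema4g*, *Plxna3*, *Sema4d*), 6 with Benjamini-Hochberg adjustment of the permutation p and 2 by limma at an adjusted p under 0.10, chosen after seeing the data. It became 0 with normexp, by limma with or without a dye term, and with each array left out (0 to 0). The 1 partner called became 4, 2, 12 and 3 under the first 4 of these settings, 0 by limma with or without a dye term, 0 without dim probes and 0 with each array left out. Calls over all probes went from 114 to 326 with the median spot signal, 399 with an intensity trend, 2223 with Benjamini-Hochberg, 249 at 0.10, 0 by limma with or without a dye term, and 0 to 7 with an array left out. The plexin median (-0.03) lay between -0.053 and 0.037 with an array left out, the latter without replicate a. The causes were not tested, other than that an array left out leaves fewer samples. No paired analysis was possible because there is 1 group, with wild-type as a common pool. Signal over background limits the 10 member probes not above it on all arrays, of *Sema3c*, *Sema3d*, *Sema3e* (its 2 dimmest), *Sema5a*, *Sema6a*, *Sema6d*, *Nrp1*, *Plxna2* and *Plxna4*.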
